A study of Mus musculus with 13 samples.

Results

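Syt4, Fam107a, Lancl3, Sox11 and A2m are 5 transcripts that were close to absent in liver endothelial cells (LECs) of conventionally raised mice (CONV-R) and several-fold more abundant in LECs of germ-free mice (GF). The 5 genes were chosen by their low counts in CONV-R and their higher values in GF in earlier results of the same count table, so their difference between the groups is described here and was not tested. They are 5 of the 24421 gene symbols in the table, and 5 of 5 passed the filter on low counts that left 13915 genes for testing. All but A2m passed that filter only because of their GF libraries.

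The study set bulk RNA-seq libraries of LECs from GF mice (n = 6, libraries 8 to 13), which are reared without any microorganism, against libraries of LECs from CONV-R mice (n = 7, libraries 1 to 7), which carry an ordinary microbiota. All 13 libraries are labelled wild type, and the labels give no age, sex, diet, pooling or method of cell isolation. Nothing in them ties each library to a separate animal, and the p-values below therefore reflect only how these libraries vary, which may be technical.

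LECs line the sinusoids of the liver, where blood from the gut passes a wall of fenestrated endothelium that takes up waste and microbial products. Syt4 encodes a synaptotagmin, a membrane protein of secretory vesicles that is best known from neurons and neuroendocrine cells. Fam107a encodes an actin-binding protein that glucocorticoids induce in the mouse brain, and Sox11 encodes a high mobility group box transcription factor of embryonic and neural progenitor cells. Lancl3 encodes a mammalian relative of bacterial lanthionine synthetase C with a poorly known function, and A2m encodes alpha-2-macroglobulin, a secreted protein that traps proteases.

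Raw counts per library totalled 23407168 to 35478115 in GF and 7590320 to 32869515 in CONV-R, so 1 count weighed more in CONV-R library 6 than in any other library. The 16 endothelial markers summed to 35966 to 38296 CPM (counts scaled to a common library total) in GF and 21054 to 35798 CPM in CONV-R. CONV-R library 1 stood apart, with the lowest endothelial sum, 7151 CPM of 14 hepatocyte markers and 1354 CPM of 5 B cell markers, and CONV-R library 7 had 6324 CPM of hepatocyte markers. Library names carry a number that was 6 in every GF library, 10 in CONV-R libraries 1 to 4 and 9 in CONV-R libraries 5 to 7. The labels do not say what that number means, and its part in any difference between GF and CONV-R cannot be told apart from the group. In bulk RNA, fewer cells of a type and less RNA per cell cannot be told apart.

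The 5 genes lie on 5 chromosomes of GRCm38, the assembly of mm10, in the GENCODE M21 annotation. Fam107a spans chr14:8296274-8318023 on the minus strand and Lancl3 chrX:9199902-9268085 on the plus strand. Sox11, a gene with 1 annotated transcript, spans chr12:27334264-27342574 on the minus strand, and A2m spans chr6:121635376-121679227 on the plus strand. A non-coding gene, Gm26658, overlaps Syt4 on the opposite strand, and Gm14862 overlaps Lancl3 on the opposite strand. The strand setting of the counting is not given in the sources used here, so reads of Syt4 and Lancl3 cannot be told apart from reads of those partners.

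The 250 bases before a RefSeq transcription start (GRCm38.p6) are shown for 3 of the genes, Fam107a, Lancl3 and Sox11. No window of A2m was among the promoters used, and Syt4 was left out because of its chromosome. The Fam107a window is chr14:8309780-8310029 on the minus strand, the Lancl3 window is chrX:9199723-9199972 on the plus strand and the Sox11 window is chr12:27342719-27342968 on the minus strand. Each is written 5′ to 3′ along the gene, and capitals mark matches to a motif on either strand.
Fam107a: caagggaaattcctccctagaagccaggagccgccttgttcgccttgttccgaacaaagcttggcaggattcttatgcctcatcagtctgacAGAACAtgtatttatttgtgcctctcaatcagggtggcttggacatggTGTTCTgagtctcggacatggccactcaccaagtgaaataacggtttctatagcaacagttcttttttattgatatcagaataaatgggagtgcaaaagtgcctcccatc
Lancl3: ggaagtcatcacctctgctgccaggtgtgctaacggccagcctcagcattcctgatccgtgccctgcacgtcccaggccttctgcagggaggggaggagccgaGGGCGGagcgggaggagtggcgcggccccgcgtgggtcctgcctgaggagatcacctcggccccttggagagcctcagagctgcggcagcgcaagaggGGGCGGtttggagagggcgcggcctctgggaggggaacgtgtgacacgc
Sox11: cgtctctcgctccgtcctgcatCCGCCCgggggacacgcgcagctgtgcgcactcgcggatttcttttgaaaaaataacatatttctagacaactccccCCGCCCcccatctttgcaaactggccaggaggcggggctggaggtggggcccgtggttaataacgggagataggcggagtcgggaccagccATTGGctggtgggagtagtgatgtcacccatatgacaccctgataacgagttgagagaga
The Fam107a capitals are AGAACA, a hexamer of the glucocorticoid receptor's binding element, once on each strand at 158 and 110 bases before the start. Of 32851 mouse promoter windows of the same length, 16.1% held AGAACA and 1.81% held it at least 2 times. A second Fam107a start lies farther upstream, and its window, chr14:8317608-8317857, held none of the motifs searched. The Lancl3 capitals are GC boxes, GGGCGG, at 147 and 49 bases before the start. The Sox11 capitals are 2 GC boxes on the other strand, at 228 and 151 bases, and 1 CCAAT box on the other strand at 60 bases. A GC box was in 32.7% of all windows and CCAAT in 33.8%. The full glucocorticoid response element, AGAACA followed after 3 bases by TGTTCT, was in none of the 3 windows and in 0.00913% of all. The letters TATAAA (12.4% of all windows), AACAAT (9.42%), TTCNNNGAA (7.02%) and CACGTG (6.02%) were searched on both strands and were in none of the 3. No 2 of these motifs overlapped in a printed window. A match is a string of letters, not evidence of binding.

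Syt4, at chr18:31437808-31447406 on the minus strand, had the highest level per kilobase of exon of the 5 genes in GF. Levels here are CPM scaled by the trimmed mean of M-values (TMM). In GF libraries its lowest, median and highest levels were 2.56, 6.95 and 8.88 CPM, from 86 to 218 counts, and in CONV-R libraries they were 0.187, 0.474 and 0.653 CPM, from 3 to 18 counts. The 6 GF libraries and the 7 CONV-R libraries did not overlap, and libraries 10 and 12 were the lowest of GF. The mean was 6.16 ± 2.59 CPM in GF (SD, n = 6) and 0.455 ± 0.158 CPM in CONV-R (SD, n = 7), a log2 fold change of 3.74 ± 0.34 (SE), or 13.4-fold, which ranked 3 among the 13915 tested genes.

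Fam107a ranked 4 in the same order. Its levels in GF libraries were 2.11 CPM at the lowest, 4.31 CPM at the median and 6.58 CPM at the highest, and in CONV-R libraries 0.125, 0.358 and 0.846 CPM. The groups did not overlap, and GF library 10 was again the lowest of GF. The mean was 4.32 ± 1.50 CPM in GF (SD, n = 6) and 0.374 ± 0.267 CPM in CONV-R (SD, n = 7), and the log2 fold change was 3.42 ± 0.41 (SE), or 10.7-fold. CONV-R libraries held only 2 to 25 counts of Fam107a, against 71 to 149 in GF libraries.

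Lancl3 had 1.99, 3.31 and 4.86 CPM at the lowest, median and highest GF library, against 0.203, 0.478 and 0.711 CPM in CONV-R libraries. Every GF value was above every CONV-R value. The mean was 3.44 ± 0.943 CPM in GF (SD, n = 6) and 0.469 ± 0.189 CPM in CONV-R (SD, n = 7), with a log2 fold change of 2.83 ± 0.29 (SE), or 7.12-fold, from 67 to 114 counts in GF and 4 to 21 in CONV-R.

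Sox11 was the least abundant of the 5 per kilobase in both groups. Its GF levels ran over 0.616, 2.09 and 3.50 CPM (lowest, median and highest), and its CONV-R levels over 0.0778, 0.250 and 0.657 CPM. The groups overlapped, because GF library 8 at 0.616 CPM lay below CONV-R library 4 at 0.657 CPM. The other 5 GF libraries were higher than all 7 of CONV-R. The mean was 2.11 ± 1.21 CPM in GF (SD, n = 6) and 0.312 ± 0.205 CPM in CONV-R (SD, n = 7), and the log2 fold change was 2.59 ± 0.47 (SE), or 6.02-fold. CONV-R libraries 6 and 7 held 1 count each.

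A2m had the smallest fold difference of the 5 and the narrowest spread in GF. Its GF libraries had 4.93, 5.86 and 7.23 CPM at the lowest, median and highest, against 0.562, 1.01 and 1.66 CPM in CONV-R libraries. The groups did not overlap. The mean was 5.89 ± 0.878 CPM in GF (SD, n = 6) and 1.04 ± 0.365 CPM in CONV-R (SD, n = 7), with a log2 fold change of 2.49 ± 0.22 (SE), or 5.62-fold, from 114 to 216 counts in GF and 8 to 49 in CONV-R.

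**Figure D1:**
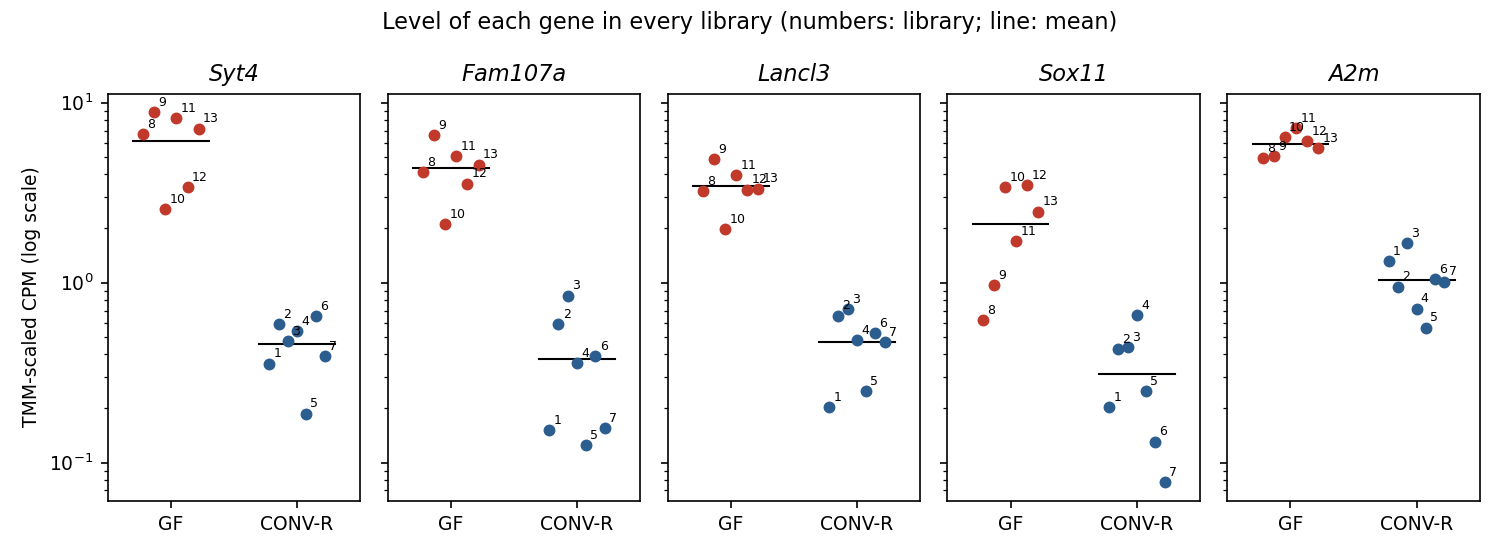
Each point is 1 library, numbered, with its level of Syt4, Fam107a, Lancl3, Sox11 or A2m in TMM-scaled CPM on a log axis, GF in red on the left and CONV-R in blue on the right, and lines at the group means. GF lies above CONV-R without overlap for 4 genes, and for Sox11 GF library 8 falls at 0.616 CPM, below CONV-R library 4 at 0.657 CPM.

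In 4 of the 5 genes the GF libraries were all above those of CONV-R, which held for 5.94% of all tested genes. Since the 5 genes were chosen for this contrast, nothing is read from that count. Over all 13915 tested genes, edgeR's quasi-likelihood test called 11.4% higher and 12.7% lower in GF at a Benjamini-Hochberg adjusted p below 0.05, or 24.1% in either direction. With library totals in place of TMM, 971 genes were higher and 2773 lower, against 1593 higher and 1764 lower with TMM, and the median log2 fold change of all tested genes moved to -0.11. Among the 933 tested genes whose CONV-R mean was no higher than that of A2m, 9.32% were higher and 3.54% lower. Only 31 tested genes, or 0.223%, were both called higher and at least 4-fold higher, and 16 of the 31 were among those 933 genes of low CONV-R level, or 1.71% of them. A gene so low in CONV-R can pass the filter through its GF libraries alone and has little room to be called lower. The 31 and the 16 also include the 5 genes, so nothing is read from the shares among the 933. Besides the 5 genes, Zbtb16, a zinc finger transcription factor, had the largest difference of the 31, with a log2 fold change of 5.51 ± 0.33 (SE) and means of 143.5 CPM in GF and 3.19 CPM in CONV-R.

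**Figure D2:**
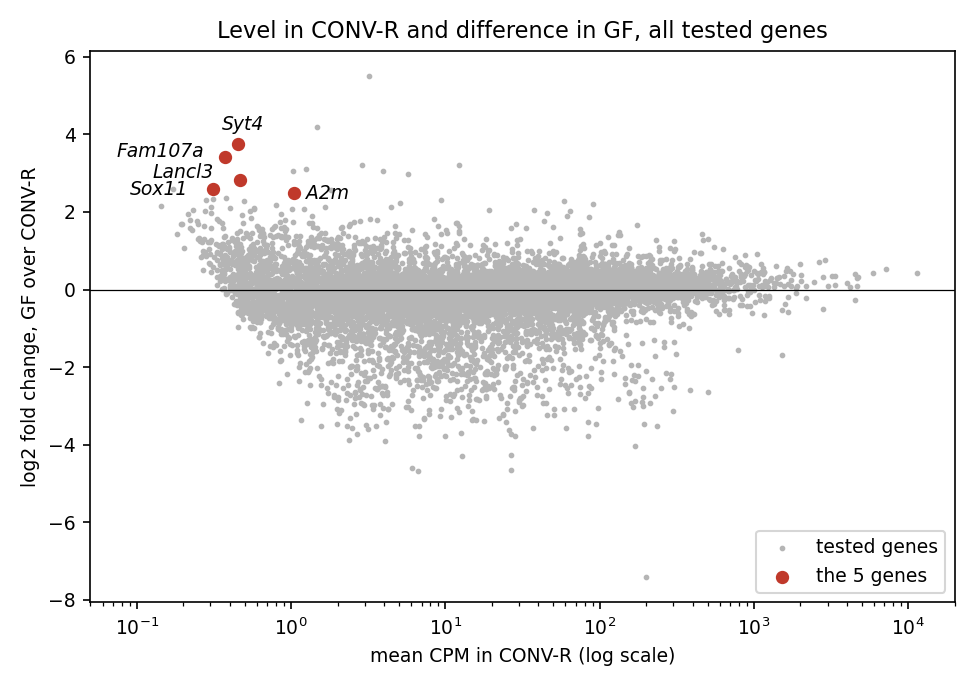
Each grey point is 1 of 13915 tested genes, with its mean CPM in CONV-R (log axis) against its log2 fold change, GF over CONV-R, and the 5 genes are red. The 5 genes sit at the left edge, at CONV-R means of 0.312 to 1.04 CPM and log2 fold changes of 2.49 to 3.74.

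Per kilobase of annotated exon, the 5 genes stayed at low level in both groups. Syt4 averaged 1.58 CPM per kilobase in GF and 0.117 in CONV-R, Fam107a 1.12 in GF and 0.0967 in CONV-R, and Lancl3 0.863 in GF and 0.118 in CONV-R. A2m stood at 0.839 CPM per kilobase in GF and 0.148 in CONV-R, and Sox11, whose exons total 8311 bases, at 0.254 in GF and 0.0375 in CONV-R. Among the 96.2% of tested genes that had an exon length, the GF level per kilobase of Syt4 was at percentile 25.9 and that of Sox11 at 6.66, while their CONV-R levels were at percentiles 2.04 and 0.209.

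Within GF the 5 genes varied by different amounts and in different libraries. The coefficient of variation over GF libraries was 14.9% for A2m, 27.4% for Lancl3, 34.6% for Fam107a, 42.0% for Syt4 and 57.6% for Sox11. The highest GF library exceeded the lowest 1.47-fold for A2m and 5.67-fold for Sox11. For all 5 genes the exact 95% Clopper-Pearson intervals of the lowest and highest GF library, which cover counting error only, did not overlap. In CONV-R the same intervals overlapped for Syt4, Lancl3 and Sox11, of which CONV-R libraries held 1 to 22 counts. They did not overlap for Fam107a and A2m, each lowest in library 5 and highest in library 3.

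Syt4 and Fam107a put the 6 GF libraries in the same order, from 9 at the top through 11, 13, 8 and 12 to 10 at the bottom. Lancl3 gave the same order except that 12 stood above 8. Sox11 gave another order, from 12 through 10, 13, 11 and 9 to 8, and A2m followed 11, 10, 12, 13, 9 and 8.

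**Figure D3:**
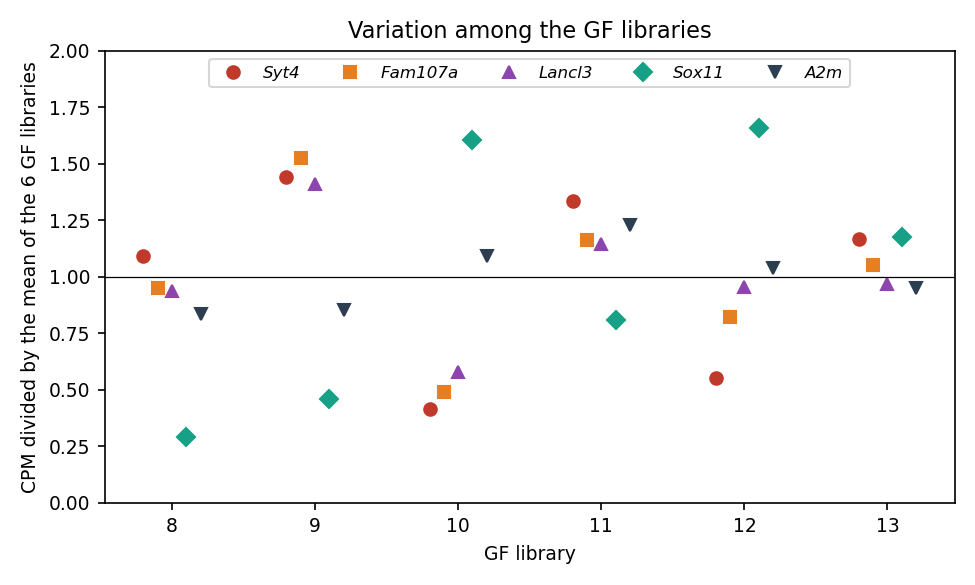
For each of the 6 GF libraries on the horizontal axis, points give the CPM of Syt4, Fam107a, Lancl3, Sox11 and A2m divided by that gene's mean over GF. Syt4, Fam107a and Lancl3 are highest in library 9 and lowest in library 10, while Sox11 is lowest in library 8 and highest in library 12.

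Over the 6 GF libraries, Pearson's r of log2 CPM was 0.93 between Syt4 and Fam107a (exact permutation p = 0.00139, the smallest that 6 libraries allow, adjusted p = 0.0496) and Spearman's rho was 1.0 (exact permutation p = 0.00278, adjusted p = 0.0556). Without the 2 libraries farthest from the median of Syt4, r was 0.95. Between Fam107a and Lancl3 r was 0.98 (exact permutation p = 0.00417, adjusted p = 0.0496), rho was 0.94 (exact permutation p = 0.0167, adjusted p = 0.111) and r without the 2 farthest libraries was 0.76. Between Syt4 and Lancl3 r was 0.85 (exact permutation p = 0.00417, adjusted p = 0.0496), rho was 0.94 (exact permutation p = 0.0167, adjusted p = 0.111) and r without the 2 farthest was 0.97. These two-sided tests belong to 40 relations within GF and within CONV-R, computed after the values had been seen. Adjusted p-values were taken over the 40. By Pearson's r 4 of the 40 passed, and none by Spearman's rho. The 4 include 1 within CONV-R, between Fam107a and the cholangiocyte marker sum given below, that rests on counts of 2 to 25.

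Depth moved with that order. GF libraries 9, 11 and 13, the 3 highest for Syt4, Fam107a and Lancl3, held 24175756, 23407168 and 24216886 counts, while libraries 8, 10 and 12 held 33349279, 34253545 and 35478115. Each of these depth sets has 3 libraries, too few for a correlation. Within the shallower set Syt4, Fam107a and Lancl3 all ran 9, 11, 13 from high to low, and within the deeper set Syt4 and Fam107a ran 8, 12, 10 and Lancl3 ran 12, 8, 10. The part of depth in the shared order was not tested.

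The genes nearest in profile to each of the 5, the other 4 left out, were sought over all 13 libraries by the root mean square difference of log2 CPM, each profile centred on its own mean, a measure that holds the difference between the groups and the spread within them. For Syt4 the nearest was Map3k6, a mitogen-activated protein kinase kinase kinase, at 0.39 log2 units, then Slc10a6, a sulphated steroid transporter, at 0.61 and Obsl1 at 0.73. For Fam107a the nearest were Slc10a6 at 0.40, Map3k6 at 0.49 and Sgms1, a sphingomyelin synthase, at 0.75. For Lancl3 they were Obsl1 at 0.39, Sgms1 at 0.41 and Map3k6 at 0.42. Both Map3k6 and Slc10a6 put the GF libraries in the order of Syt4 and Fam107a, 9, 11, 13, 8, 12 and 10.

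Map3k6 stood at 69.4, 124.4 and 136.9 CPM (lowest, median and highest) in GF and at 8.56, 12.7 and 17.2 CPM in CONV-R, and Slc10a6 at 14.5, 35.5 and 43.8 CPM in GF and at 1.37, 3.87 and 6.94 CPM in CONV-R. Neither overlapped between the groups, and 5.94% of all tested genes had every GF library above every CONV-R library. The search took in the group difference of genes chosen for it, so nothing is read from that separation. A2m was nearest to Sgms1 at 0.42, Nmnat2, an enzyme of NAD synthesis, at 0.43 and Hif3a, a hypoxia-inducible factor subunit, at 0.48. Sox11 was farthest from any other profile, with Rgs16 at 0.59, Egfem1 at 0.69 and Ackr3 at 0.70. Among the 5 genes themselves the smallest difference was between Syt4 and Fam107a at 0.45, and the difference between Syt4 and Sox11 was 1.24.

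No tested relative of the 5 genes in their families rose by as much as any of the 5. Because the 5 were chosen for their rise, that gap was largely set by the choice, and nothing is read from it. Of 27 relatives that were tested, 3 were higher and 9 lower in GF by edgeR with Benjamini-Hochberg adjustment over all tested genes, against 11.4% higher and 12.7% lower of all tested genes, and their median log2 fold change was -0.064, against -0.0092 for all tested genes. The 3 higher relatives were Syt7, Lancl2 and Sox7, each by less than 1 log2 unit. With the hepatocyte marker sum as a covariate no relative was higher and 1 was lower (Syt12, log2 fold change -0.90), and with the cholangiocyte sum none was higher or lower. Without CONV-R libraries 1 and 7, 1 was higher and 8 lower.

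Of the 16 other synaptotagmins, 8 were tested, 1 rose and 1 fell in GF. Syt7, a calcium sensor of lysosome and vesicle fusion, rose to 46.5 ± 4.94 CPM in GF (SD, n = 6), against 32.7 ± 5.53 CPM in CONV-R (SD, n = 7), with 6 of 6 GF libraries above every CONV-R library (log2 fold change 0.51 ± 0.11 SE, edgeR adjusted p = 0.00618). Syt11, the closest relative of Syt4, fell to 5.78 ± 0.809 CPM in GF, against 8.37 ± 1.54 CPM in CONV-R, with 2 of 6 GF libraries below every CONV-R library (log2 fold change -0.54 ± 0.15 SE, edgeR adjusted p = 0.0184), a call lost against CONV-R libraries 5 to 7 alone (-0.37, adjusted p = 0.165). Syt1, the synaptic vesicle calcium sensor, did not pass the test, at 0.417 ± 0.211 CPM in GF and 0.515 ± 0.230 CPM in CONV-R (log2 fold change -0.33 ± 0.38 SE, edgeR adjusted p = 0.541). Syt10 had no count in any library.

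Fam107b, the single relative of Fam107a listed, averaged 88.9 ± 9.38 CPM in GF (SD, n = 6) and 90.9 ± 24.4 CPM in CONV-R (SD, n = 7), a log2 fold change of -0.033 ± 0.14 (SE, edgeR adjusted p = 0.888) that is 0.10 without CONV-R library 1. Lancl2, which encodes a membrane-associated LanC-like protein, rose to 24.4 ± 1.75 CPM in GF, against 18.7 ± 3.57 CPM in CONV-R, with 5 of 6 GF libraries above every CONV-R library (log2 fold change 0.38 ± 0.12 SE, edgeR adjusted p = 0.0300). Lancl1, which encodes a glutathione-binding protein, fell to 20.5 ± 1.58 CPM in GF, against 24.8 ± 2.27 CPM in CONV-R, with 4 of 6 GF libraries below every CONV-R library (log2 fold change -0.28 ± 0.074 SE, edgeR adjusted p = 0.0163). The call of Lancl1 was lost against CONV-R libraries 5 to 7 alone (adjusted p = 0.149). The call of Lancl2 was lost without any 1 of CONV-R libraries 5 to 7 or GF libraries 8, 9, 11, 12 and 13, at adjusted p-values up to 0.0793, and with library totals at 0.0610.

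Of the 18 other SOX genes, 9 were tested, 1 rose and none fell. Sox7, an endothelial factor of the SOXF group, rose to 93.6 ± 11.9 CPM in GF (SD, n = 6), against 76.3 ± 6.75 CPM in CONV-R (SD, n = 7), with 5 of 6 GF libraries above every CONV-R library (log2 fold change 0.29 ± 0.085 SE, edgeR adjusted p = 0.0241). That call was lost without CONV-R library 5 or any 1 of GF libraries 9, 10 and 11, at adjusted p-values up to 0.0710, and with library totals at 0.0765. Sox4 and Sox12, which form the SOXC group with Sox11, had log2 fold changes of 0.12 ± 0.19 (SE, edgeR adjusted p = 0.683) and 0.27 ± 0.15 (SE, edgeR adjusted p = 0.205). The Sox4 value is -0.060 against CONV-R libraries 1 to 4 alone, and the Sox12 value is 0.56 with an adjusted p of 0.0110 against CONV-R libraries 5 to 7 alone. Sox1, Sox3 and Sox14 had no count in any library.

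The alpha-2-macroglobulin family ran the other way from A2m. Of 10 listed relatives, 7 were tested and 7 of 7 fell in GF. Pzp, which encodes the closest relative of A2m and the major macroglobulin of mouse plasma, fell to 27.9 ± 5.93 CPM in GF (SD, n = 6), against 190 ± 152 CPM in CONV-R (SD, n = 7), with 6 of 6 GF libraries below every CONV-R library (log2 fold change -2.76 ± 0.52 SE, edgeR adjusted p = 0.00306). The same separation was seen for 4.32% of tested genes. Complement C3 and C5 (gene symbol Hc) had log2 fold changes of -1.67 ± 0.46 (SE, edgeR adjusted p = 0.0202) and -1.37 ± 0.37 (SE, edgeR adjusted p = 0.0190). Against CONV-R libraries 1 to 4 alone both calls were lost (adjusted p = 0.121 for C3 and 0.0901 for Hc), and without CONV-R libraries 1 and 7 that of C3 was lost (adjusted p = 0.0971). Mug1, Mug2, C4a and C4b also fell, but each pair of genes is nearly identical and their reads could be split between copies, and the call of C4b was lost without any 1 of CONV-R libraries 1 and 5 to 7 or of the 6 GF libraries. The family's other 3 members, Cd109, A2ml1 and Cpamd8, were not tested.

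Hepatocytes make these plasma proteins, and hepatocyte markers fell with them: 11 of 13 tested markers were lower in GF and none higher. Of all tested genes 12.7% were lower and 11.4% higher. The sum of the 14 listed was 617 to 997 CPM in GF and 1132 to 7151 CPM in CONV-R, without overlap. With the hepatocyte sum in the model as a covariate, the log2 fold change was -0.071 for Pzp (edgeR adjusted p = 0.917), 0.54 for C3 (0.544) and 0.38 for Hc (0.542), and none of the 7 passed. With the same covariate the log2 fold changes of the 5 genes were 3.08 for Syt4, 2.10 for Fam107a, 2.05 for Lancl3, 2.06 for Sox11 and 2.53 for A2m. Because the sum does not overlap between the groups, the hepatocyte share and the group cannot be told apart in that fit. Which cells carried A2m was not tested.

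**Figure D4:**
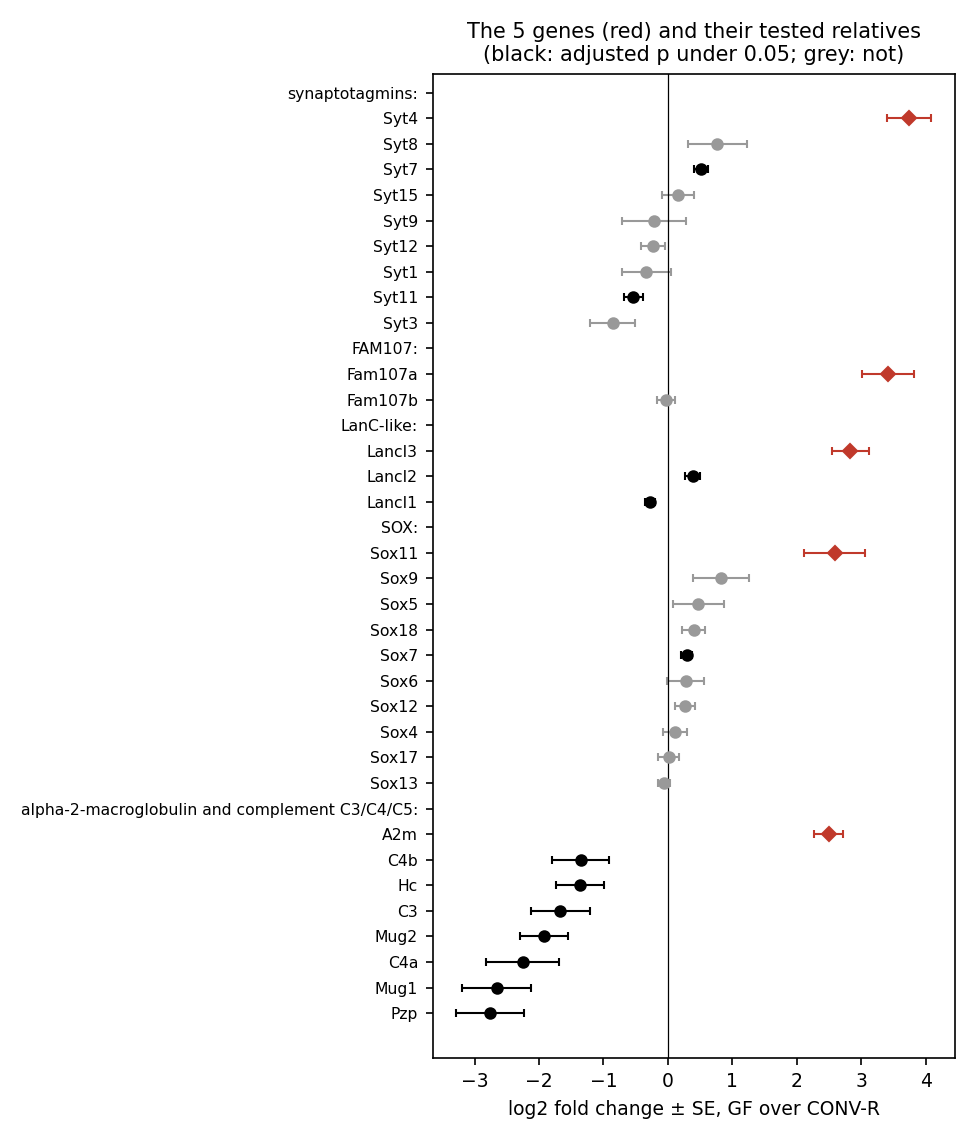
Log2 fold changes, GF over CONV-R, with standard errors, of the 5 genes (red diamonds) and the tested relatives in their families (black where the edgeR adjusted p was below 0.05, grey where not). The 5 genes, which were chosen for their rise, stand at 2.49 to 3.74, while their relatives range between -2.76 for Pzp and 0.82 for Sox9.

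Genes of regulated secretion, the process in which Syt4 acts, were measured more fully than its usual cargo. Of 27 tested genes of vesicle docking and fusion, 9 rose and 3 fell in GF (edgeR adjusted p below 0.05), against 11.4% higher and 12.7% lower of all tested genes, with a median log2 fold change of 0.025. With the hepatocyte or the cholangiocyte marker sum as a covariate, 2 rose and none fell, while 265 and 318 of all 13915 tested genes were higher under those covariates. The largest values of the list belonged to some of the small GTPases that bring vesicles to the membrane. Rab27a had a log2 fold change of 1.19 ± 0.14 (SE, edgeR adjusted p = 0.000133), Rab27b 1.12 ± 0.31 (SE, edgeR adjusted p = 0.0191) and Rab3a 0.99 ± 0.11 (SE, edgeR adjusted p = 7.84e-05). Rab3b (-0.30 ± 0.21 SE, edgeR adjusted p = 0.306) and Rab3d (0.081 ± 0.13 SE, edgeR adjusted p = 0.673) did not pass. Rab27a averaged 228 ± 39.8 CPM in GF (SD, n = 6) and 100.1 ± 18.6 CPM in CONV-R (SD, n = 7). Stxbp2, a syntaxin-binding protein, fell with a log2 fold change of -0.82 ± 0.17 (SE, edgeR adjusted p = 0.00549). Of 12 listed cargo and processing genes of dense-core vesicles, only Cpe, carboxypeptidase E, was tested, and it did not pass (0.43 ± 0.43 SE, edgeR adjusted p = 0.477, and -0.029 without GF library 11).

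Glucocorticoid-responsive genes, listed because Fam107a is one in mouse brain, rose in 10 of 22 tested, and none fell, against 11.4% higher and 12.7% lower of all tested genes. Their median log2 fold change was 0.54, and with the hepatocyte covariate 7 rose, against 265 of all 13915 tested genes. That list was drawn up with results of these libraries known and is not independent evidence of a direction. Besides Zbtb16 and Map3k6, Ddit4, an inhibitor of mTOR signalling, had a log2 fold change of 2.04 ± 0.22 (SE, edgeR adjusted p = 7.76e-05) and Fkbp5, a chaperone of the glucocorticoid receptor, 1.87 ± 0.17 (SE, edgeR adjusted p = 2.52e-05). Nr3c1, the receptor itself, averaged 213.4 ± 7.68 CPM in GF (SD, n = 6) and 223 ± 21.2 CPM in CONV-R (SD, n = 7) and did not pass (-0.064 ± 0.065 SE, edgeR adjusted p = 0.495). Sgk1 and Dusp1, which glucocorticoids also induce, had log2 fold changes of 0.0071 and 0.15 and did not pass.

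Lancl1 binds glutathione, and of 11 tested genes of glutathione synthesis and breakdown none rose and 4 fell (Ggt5, Gsr, Chac1 and Gss), with a median of -0.38. The largest was Ggt5, a gamma-glutamyl transferase, at -1.46 ± 0.35 (SE, edgeR adjusted p = 0.0109). Beside this list and those that follow, 11.4% of all tested genes were higher and 12.7% lower. The interleukin-6 pathway, which induces A2m in rat liver, had 2 higher (Osmr and Jak1) and 2 lower (Socs3 and Bcl3) of 14 tested genes, and a median of -0.078. Socs3, the feedback inhibitor of the pathway, had a log2 fold change of -1.15 ± 0.33 (SE, edgeR adjusted p = 0.0247), and Stat3 one of 0.068 ± 0.082 (SE, edgeR adjusted p = 0.570). Of 12 tested genes for proteases that A2m can trap, their activators and its receptor, 1 rose, Plat, the tissue plasminogen activator, at 0.87 ± 0.20 (SE, edgeR adjusted p = 0.00886), and 4 fell (Plg, Mmp9, F2 and Klkb1), with a median of -0.21. With either covariate none of the genes of these 3 lists was called lower. Of all 13915 tested genes, only 211 were lower with the hepatocyte and 170 with the cholangiocyte covariate. Neutrophil markers moved with Mmp9, a gelatinase of neutrophils: 5 of 6 tested were lower in GF, their sum was 67.1 to 154 CPM in GF and 122 to 2181 CPM in CONV-R, and CONV-R library 7 was highest for both. Their part in the result for Mmp9 was not tested. The calls of Gss, Chac1, Jak1 and Socs3 were each lost without 1 or more single libraries. Lrp1, the receptor that clears A2m with its proteases, had -0.63 ± 0.29 (SE, edgeR adjusted p = 0.123).

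Among neighbouring genes, Oit1, which lies 30914 bases from Fam107a on the same strand, also rose. It had 1.30, 1.58 and 1.77 CPM at the lowest, median and highest GF library, against 0.0338, 0.125 and 0.983 CPM in CONV-R libraries, without overlap (log2 fold change 2.33 ± 0.52 SE, edgeR adjusted p = 0.00767, 0.173 with the hepatocyte and 0.102 with the cholangiocyte covariate). Counts of Oit1 were low, 29 to 59 in GF libraries and 1 to 30 in CONV-R libraries, with the 30 in CONV-R library 2. Such a separation held for 5.94% of all tested genes. On the other side of Fam107a, Acox2, a peroxisomal oxidase at 36921 bases, had -0.94 ± 0.40 (SE, edgeR adjusted p = 0.0999), and Kctd6 had -0.040 ± 0.11 (SE, edgeR adjusted p = 0.825). The Acox2 value is 1.04 with the hepatocyte covariate. Xk, 4671 bases downstream of Lancl3 on the same strand, averaged 6.68 CPM in GF and 4.40 CPM in CONV-R, with 4 of 6 GF libraries above every CONV-R library (log2 fold change 0.60 ± 0.16 SE, edgeR adjusted p = 0.0189). The call of Xk was lost without GF library 9 (adjusted p = 0.0531), against CONV-R libraries 1 to 4 (0.0806), and with the hepatocyte (0.345) and the cholangiocyte covariate (0.0717). No nearest neighbour of Syt4, Sox11 or A2m was tested.

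Markers of other cells were set beside the 5 genes because Syt4 and Sox11 are best known from neurons. Of 14 neuronal markers, Elavl4 and Dbh were among those with no count in any library, 6 were tested, none rose and 1, Syn1, fell. The neuronal sum was 22.2 to 28.0 CPM in GF and 18.7 to 32.2 CPM in CONV-R, most of it Rbfox3 at 19.0 CPM in GF and 19.1 CPM in CONV-R. Of 9 glial markers 6 were tested, none rose and 1 fell, with sums of 8.74 to 18.3 CPM in GF and 9.86 to 44.2 CPM in CONV-R. Beside these counts, 11.4% of all tested genes were higher and 12.7% lower.

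Cholangiocyte markers, of the bile duct epithelium, moved with the groups. Of 10 tested markers 4 rose in GF (Krt7, Krt19, Epcam and Cftr), and the sum of the 10 was 140 to 370 CPM in GF and 51.8 to 264 CPM in CONV-R. By group means most of that sum was 1 gene, Spp1, at 209.9 CPM in GF and 94.2 CPM in CONV-R. Spp1 did not pass (log2 fold change 1.15 ± 0.47 SE, edgeR adjusted p = 0.0874). GF libraries 8 and 9, the lowest for Sox11, also had the lowest sums of GF at 188 and 140 CPM. Within GF, r between Sox11 and this sum was 0.79 (exact permutation p = 0.0722, adjusted p = 0.241, rho = 0.54, n = 6) and 0.11 without the 2 farthest libraries, so the relation rests on those libraries. Within GF, r between Sox11 and the hepatocyte sum was 0.87 (exact permutation p = 0.0361, adjusted p = 0.206, rho = 0.71, n = 6) and 0.59 without the 2 farthest libraries. Within CONV-R, r between Fam107a and the cholangiocyte sum was 0.92 (exact permutation p = 0.00496, adjusted p = 0.0496, rho = 0.93, n = 7) and 0.86 without the 2 farthest libraries. Lancl3 had r = 0.88 there (exact permutation p = 0.0183, adjusted p = 0.122). Within GF, r with the same sum was -0.64 for Fam107a (exact permutation p = 0.175, adjusted p = 0.329) and -0.68 for Lancl3 (exact permutation p = 0.153, adjusted p = 0.329). With the cholangiocyte sum as a covariate, the log2 fold change was 1.61 for Sox11, 3.10 for Fam107a, 2.62 for Lancl3, 3.71 for Syt4 and 2.23 for A2m.

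**Figure D5:**
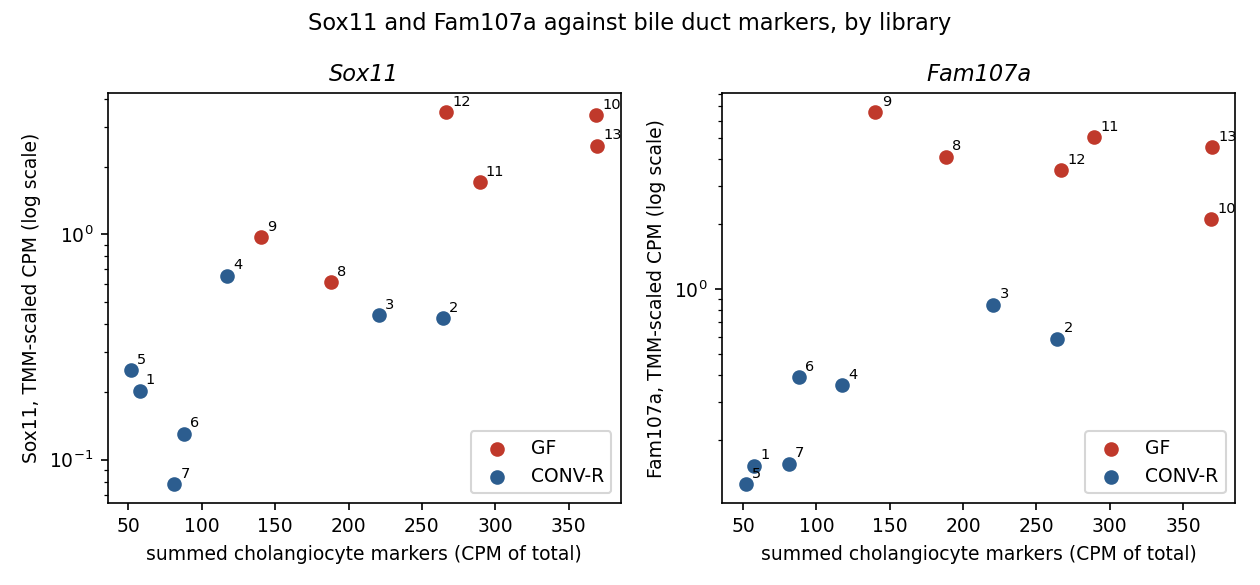
Summed CPM of 10 cholangiocyte markers in each library (horizontal axis) against the TMM-scaled CPM of Sox11 and of Fam107a (log axes), GF in red and CONV-R in blue, with library numbers. GF library 9, with a sum of 140 CPM, has the highest Fam107a and a Sox11 level of 0.972 CPM, while CONV-R libraries 2 and 3 have sums of 264 and 221 CPM and Fam107a levels of 0.590 and 0.846 CPM.

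Endothelial markers were higher in GF for 9 of 16 tested and lower for none, those of continuous endothelium higher for 4 of 10 and those of lymphatic endothelium for 2 of 4. B cell markers were lower for 5 of 5, with sums of 15.1 to 29.3 CPM in GF and 44.2 to 1354 CPM in CONV-R. No Kupffer cell marker of 9 tested and no T or NK cell marker of 7 tested passed in either direction, and 1 of 2 mesothelial markers was higher. The part of these cell types in the levels of the 5 genes was not tested.

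Stellate cell and fibroblast markers were higher in GF for 2 of 11, against 11.4% of all tested genes. They were high in 1 GF library, with a sum of 612 CPM in library 11, against 44.4 to 85.6 CPM in the other GF libraries and 32.7 to 130 CPM in CONV-R. Without CONV-R libraries 1 and 7, which stood apart in hepatocyte markers, the log2 fold changes were 3.64 for Syt4, 3.11 for Fam107a, 2.65 for Lancl3, 2.30 for Sox11 and 2.55 for A2m. Leaving out any 1 library gave 3.60 to 3.89 for Syt4, 3.24 to 3.77 for Fam107a, 2.68 to 2.97 for Lancl3, 2.38 to 2.87 for Sox11 and 2.38 to 2.66 for A2m. Against CONV-R libraries 1 to 4 alone the values were 3.62 for Syt4, 3.10 for Fam107a, 2.71 for Lancl3, 2.25 for Sox11 and 2.35 for A2m. Against CONV-R libraries 5 to 7 alone they were 4.03 for Syt4, 4.41 for Fam107a, 3.10 for Lancl3, 3.65 for Sox11 and 2.79 for A2m.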

How the data were processed

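Per the labels' protocols, total RNA of LECs was made into stranded poly(A)-selected libraries and read on 1 Illumina instrument type. The authors deposited raw counts per gene symbol in a single table with 1 column per library, and 0 columns fell outside the series. The submitters' processing notes name mm10, STAR 2.7.5a, featureCounts 2.0.1, FastQC 0.11.9 and DESeq2 1.42.1. The annotation, the strand setting and the handling of reads with several places were not named in these sources.

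Genes were kept by filterByExpr (minimum count 10), scaled by TMM and fitted with edgeR 4.0.16 (robust quasi-likelihood, group as the single term), and p-values were Benjamini-Hochberg adjusted over 13915 genes, with a threshold of 0.05. The fit was tested on simulated data. DESeq2 1.42.0 was an alternative. Log2 CPM, for profiles and for relations within groups, used a prior count of 2, and the printed CPM used none. The SE of a log2 fold change is its absolute size divided by the square root of the test's F statistic. Exact permutation tests used scipy 1.17.1. No library was a repeat of another of its group: over genes with 20 or more counts in a pair, chi-square divided by its degrees of freedom was 13.4 or more. Totals of 7590320 to 35478115 counts set the precision, and a count of 0 allows up to 3 counts.

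The 5 genes and all lists were chosen with earlier results of these data known. A fixed rule (every tested relative, up to 4 called genes per pathway list, neighbours, the 3 nearest profiles and called or absent markers) named 106 other genes, 88 of them called, and 65 entered the alternatives. The selection described in the text was made with values seen, as was that of Sgk1, Dusp1, Nr3c1, Stat3 and Lrp1. The relations within groups and the fit without CONV-R libraries 1 and 7 were added after seeing the data. Promoters came from RefSeq (GRCm38.p6) and are printed for 3 of the genes. A2m had no window there, and Syt4 was left out because of its chromosome. Single results for some marker genes are not reported here.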

Additional observations from a re-analysis of the deposited data

Results flagged for a closer look

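Among 140 sets of values, each 1 gene in 1 group, 9 held a library whose gap to its nearest neighbour was large against the range of its group, where chance gives about 1 in 20. None of them was Syt4, Fam107a, Lancl3, Sox11 or A2m. CONV-R library 1 was high for Fam107b at 145 CPM (other CONV-R libraries 74.9 to 89.7 CPM) and for Zbtb16 at 6.74 CPM (1.76 to 3.58 CPM). CONV-R library 2 was high for Krt19 at 35.8 CPM (2.88 to 16.1 CPM) and Epcam at 11.0 CPM (1.87 to 5.48 CPM). CONV-R library 7 was high for Mmp9 at 177 CPM (23.1 to 69.8 CPM) and Chac1 at 8.48 CPM (3.60 to 5.53 CPM), and CONV-R library 6 for Syt8 at 1.18 CPM (0.101 to 0.524 CPM). GF library 9 was high for Sox18 at 376 CPM (other GF libraries 187 to 230 CPM), and GF library 11 for C3 at 179.7 CPM (60.3 to 104.8 CPM).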

How the results depend on the processing

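No paired analysis was possible because GF and CONV-R libraries share no replicate number. Over 23 alternatives (22 for Sox11, which the stricter filter of 1 CPM in 6 libraries removed) the log2 fold changes ran from 3.08 to 4.03 for Syt4, 2.10 to 4.41 for Fam107a, 2.05 to 3.10 for Lancl3, 1.61 to 3.65 for Sox11 and 2.23 to 2.79 for A2m. The lowest values came with the hepatocyte covariate for Syt4, Fam107a and Lancl3 and with the cholangiocyte covariate for Sox11 and A2m.

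Over all genes, 1593 were higher and 1764 lower. The numbers were 971 and 2773 with library totals, 978 and 1000 against CONV-R libraries 1 to 4, 265 and 211 with the hepatocyte covariate and 318 and 170 with the cholangiocyte covariate. Leaving out 1 library gave 1013 (without GF library 9) to 1765 higher. Higher relatives numbered 3, and 1 with library totals, against CONV-R libraries 1 to 4 and without CONV-R libraries 1 and 7, and 0 with either covariate, and 1 to 3 without 1 library (1 without CONV-R library 5, GF library 9 or GF library 11). Lower relatives numbered 9, and 5 against CONV-R libraries 1 to 4, 1 with the hepatocyte covariate (Syt12, not among the 9) and 0 with the cholangiocyte covariate. Pathway genes were 22 higher and 13 lower, with 9 higher under the hepatocyte and 13 under the cholangiocyte covariate, 0 lower under both, and 6 lower against CONV-R libraries 1 to 4 and 25 against 5 to 7. The cause of these moves was not tested.

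Signs turned as follows. With the hepatocyte covariate the log2 fold change was 0.066 for Syt1, -0.34 for Syt15, 0.35 for Fam107b, -0.27 for Sox4, -0.081 for Sox12, -0.027 for Sox17, -0.057 for Sox18, 0.10 for Mug1, 0.54 for C3, 0.23 for C4a, 0.077 for C4b, 0.38 for Hc, 0.047 for Gss, 0.27 for Klkb1 and 1.04 for Acox2. With the cholangiocyte covariate it was -0.34 for Syt15, 0.13 for Fam107b, -0.17 for Sox4, -0.29 for Sox6, -0.40 for Sox9, -0.0078 for Sox12 and -0.050 for Sox17. Against CONV-R libraries 1 to 4 it was -0.023 for Syt15, -0.060 for Sox4 and 0.011 for Kctd6, and against 5 to 7 it was 0.13 for Fam107b and -0.068 for Sox17. Sox17 was -0.083 with library totals and -0.0049 with the stricter filter, and Fam107b 0.12 without CONV-R libraries 1 and 7. Without 1 library the ranges crossed 0 for Fam107b (-0.086 to 0.10), Sox4 (-0.0036 to 0.19), Sox17 (-0.073 to 0.15), Cpe (-0.029 to 0.63) and Kctd6 (-0.12 to 0.014). The cause of these turns was not tested.

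With a prior count of 0.5 in place of 2 the nearest profiles changed in part, with Grhl2, Egfem1 and Rgs16 nearest to Sox11 and Ctgf among the 3 nearest to Fam107a. Counts of 1 to 25 in CONV-R limit Syt4, Fam107a, Lancl3 and Sox11 to a broad estimate of the CONV-R level.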
